A study of Mus musculus with 8 samples.

Results

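The 8 transcription factors described here, Nkx2-1, Gsx1, Gsx2, Emx1, Emx2, Pax6, Lhx6 and Otx1, divide the wall of the lateral ventricle into regions. They were chosen by name, and every probe that the platform annotation assigns to them was taken, which gave 12 of the 32684 probes and 8 of 21363 named genes. Gsx2 and Pax6 had 2 probes each, Lhx6 had 3, and the other 5 genes had 1. The tissue was subventricular zone dissected along the lateral ventricle in thick sections of the forebrain, from female mice aged 7 months. The 4 3xTg mice model Alzheimer's disease and carry, among other alterations, transgenes for human APP and MAPT under a Thy1 cassette, and the 4 WT mice are of the control strain. The strain background of both groups is labelled as C57BL/6J (B6) females crossed to 129S1/SvImJ (129S) males. The samples of 1 replicate number, a 3xTg and a WT sample, shared an array, with 3xTg labelled Cy5 and WT labelled Cy3 throughout, so that genotype and dye cannot be told apart. Values are log2 intensities as normalized by the authors, and a difference is always 3xTg minus WT on that scale.

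The ventricular wall keeps in adult life a map that was drawn in the embryo. Homeodomain factors made in separate bands of the neuroepithelium set which neurons each band produces, and the stem cells that remain in the adult wall still carry the code of their band and send different kinds of interneuron to the olfactory bulb. Nkx2-1 marks the ventral band, which descends from the medial ganglionic eminence and preoptic area, and Lhx6 is its target in mouse. Gsx1 and Gsx2 mark the lateral band, which descends from the lateral ganglionic eminence. Emx1, Emx2, Pax6 and Otx1 belong to the dorsal, or pallial, band, and Pax6 also acts in the lineage of dopaminergic periglomerular neurons. In RNA of a dissected tissue, fewer cells of a type and less RNA per cell cannot be told apart.

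None of the 12 probes passed the test over the whole table (limma, adjusted p under 0.05), where 1.22% of all probes passed. At an unadjusted p under 0.05 there were 3, for Nkx2-1, Otx1 and Emx2, against 18.0% of all probes. Those 3 probes were also the ones with a single sign on the 4 arrays, a pattern that 25.3% of all probes showed. The median size of the difference was 0.12 over the 12 probes and 0.13 over the table. By direction, 3 probes had a mean above 0 and 9 had a mean below 0. No value of the 12 probes lay at the upper limit of its sample, and 5 of the 12 (Emx1, both for Gsx2 and 2 for Lhx6) were in the dimmest 25% of the table.

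**Figure D1:**
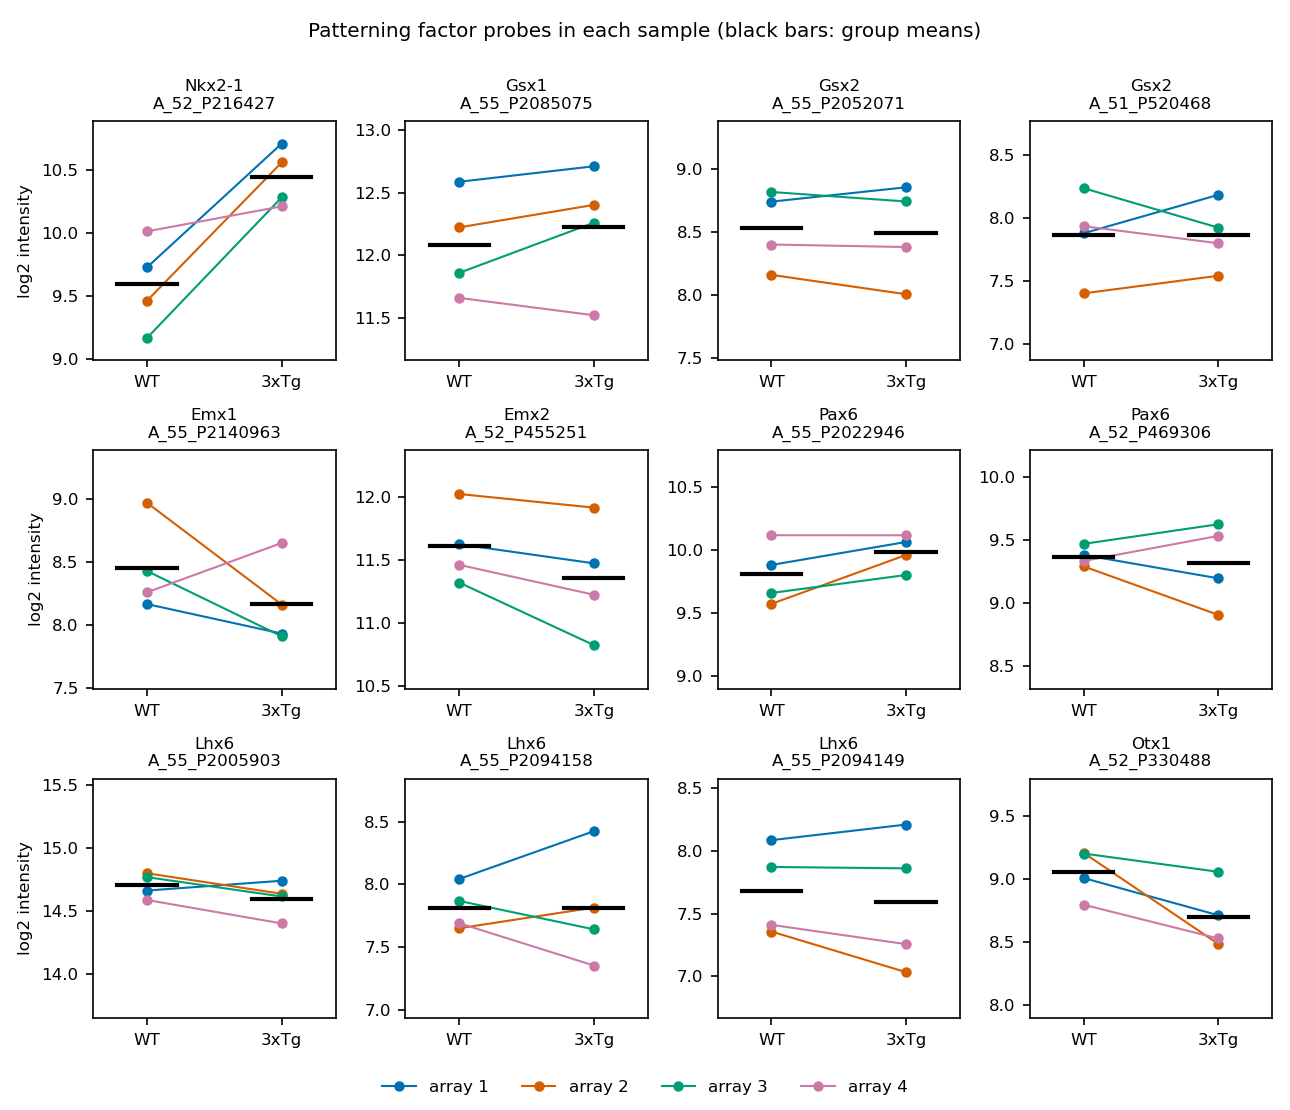
Log2 intensity of each of the 12 probes in the 4 WT and 4 3xTg samples, with a line joining the samples of an array and black bars at the group means; every panel spans the same height on its y axis. The WT and 3xTg samples of Nkx2-1 do not overlap, whereas those of the other 11 probes do.

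Nkx2-1, which the ventral band needs for its identity, had the largest difference of the 8 genes. Its probe (A_52_P216427) measured 10.71, 10.56, 10.28 and 10.21 in the 3xTg samples of replicates 1 to 4 and 9.73, 9.46, 9.17 and 10.01 in the WT samples. The lowest 3xTg sample thus lay above the highest WT sample, and 2.02% of all probes had 3xTg above WT without overlap. The 3xTg mean was 10.44 ± 0.23 and the WT mean 9.59 ± 0.36 (SD over 4 samples). The difference was 0.85 ± 0.16 (SE), a 1.80-fold higher intensity with a 95% interval from 1.38 to 2.34, and it was above 0 on 4 of 4 arrays. It did not pass over all probes (limma, adjusted p = 0.062). A difference at least as high was found at 0.551% of all probes.

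The arrays were not alike for Nkx2-1. The difference was 0.98, 1.10 and 1.12 on arrays 1, 2 and 3 and 0.20 on array 4, where the WT sample was the brightest of its group. Without replicate 4 the difference was 1.06 and passed (limma, adjusted p = 0.0198). Without replicate 1, 2 or 3 it was 0.80, 0.77 and 0.76 and did not pass (adjusted p = 0.17, 0.418 and 0.0972). Nkx2-1 also passed after centring on sample medians (adjusted p = 0.0476), with the array as a random block (adjusted p = 0.0153) and with trend and robust moderation (adjusted p = 0.0163).

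The RefSeq promoter windows of Nkx2-1 and Emx2 are shown because these genes had a single sign on all arrays, in opposite directions, and the table holds a window for both. Each window runs from 250 bases before to 50 bases after the annotated start, 5′ to 3′ on the strand of the gene in GRCm38.p6. The Nkx2-1 window is on the minus strand at chr12:56536859-56537158 and the Emx2 window on the plus strand at chr19:59458440-59458739. Capitals mark TAATTA, a palindrome and so the same on both strands, which contains the TAAT core that many homeodomain proteins bind.
Nkx2-1: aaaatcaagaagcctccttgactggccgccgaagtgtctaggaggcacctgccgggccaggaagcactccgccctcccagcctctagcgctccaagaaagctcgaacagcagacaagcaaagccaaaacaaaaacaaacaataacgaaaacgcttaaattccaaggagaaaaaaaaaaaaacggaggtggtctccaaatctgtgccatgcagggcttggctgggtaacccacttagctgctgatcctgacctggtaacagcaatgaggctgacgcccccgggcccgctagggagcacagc
Emx2: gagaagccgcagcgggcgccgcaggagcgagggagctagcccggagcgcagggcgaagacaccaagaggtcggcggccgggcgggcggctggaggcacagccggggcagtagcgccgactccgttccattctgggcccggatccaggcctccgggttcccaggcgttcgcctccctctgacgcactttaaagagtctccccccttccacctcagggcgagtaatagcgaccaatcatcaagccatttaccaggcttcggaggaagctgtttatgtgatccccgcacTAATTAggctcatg
The Emx2 window holds TAATTA once, near its 3′ end, and the Nkx2-1 window does not hold it; 5.29% of all 32851 windows of this length do. The dinucleotide CG occurs 12 times in the Nkx2-1 window and 26 times in that of Emx2, against a median of 7. Across the 10 windows of 7 of the genes, CG occurred 11 to 37 times, most often in Emx1, and all 10 lay above that median. Of all windows, 41.4% held CG at least 11 times. TAATTA was found in 1 of these 10 windows.

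The dorsal factors Emx1, Emx2 and Otx1 had lower means in 3xTg, and none of them passed. Otx1, a factor of the forebrain and of deep cortical layers, measured 8.71, 8.48, 9.06 and 8.53 in 3xTg and 9.01, 9.21, 9.20 and 8.79 in WT (A_52_P330488). The WT sample was the higher on each array, although the groups overlapped because the 3xTg sample of replicate 3 was brighter than 2 of the WT samples. The difference was -0.36 ± 0.12 (SE, n = 4 arrays; 95% interval -0.64 to -0.08; limma adjusted p = 0.191). The array of replicate 2 had the largest difference, -0.72, and without it the mean was -0.24.

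Emx2, which is needed for growth of the medial pallium and hippocampus, measured 11.47, 11.91, 10.82 and 11.22 in 3xTg and 11.62, 12.02, 11.32 and 11.46 in WT (A_52_P455251). Again the WT sample was the higher on each array, while the groups overlapped widely because the arrays differed. The difference was -0.25 ± 0.10 (SE; 95% interval -0.49 to -0.0047; limma adjusted p = 0.27). Lower values in 3xTg on all 4 arrays, as for Otx1 and Emx2, were found at 12.0% of all probes. Emx2os, the antisense transcript beside Emx2, differed by -0.0061 (adjusted p = 0.992).

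Emx1, which marks the pallial lineage and excitatory neurons of the cortex, measured 7.94, 8.17, 7.91 and 8.65 in 3xTg and 8.17, 8.97, 8.43 and 8.26 in WT (A_55_P2140963). The 3xTg sample was the lower on arrays 1, 2 and 3 and the higher on array 4. The difference was -0.29 ± 0.18 (SE; 95% interval -0.72 to 0.14; limma adjusted p = 0.447), and it was -0.52 without replicate 4 and -0.12 without replicate 2.

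Pax6, a paired-domain and homeodomain factor of dorsal progenitors and adult neuroblasts, gave means of opposite sign at its probes. The brighter probe (A_55_P2022946) measured 10.06, 9.96, 9.80 and 10.12 in 3xTg and 9.88, 9.57, 9.66 and 10.12 in WT, a difference of 0.18 ± 0.10 (SE; limma adjusted p = 0.406). The other (A_52_P469306) measured 9.19, 8.90, 9.62 and 9.53 in 3xTg and 9.38, 9.29, 9.47 and 9.33 in WT, a difference of -0.05 ± 0.13 (adjusted p = 0.861). On array 2 these probes differed by 0.39 and -0.38, so the sign for Pax6 in the same pair of samples depended on the probe. The antisense neighbour Pax6os1 differed by 0.25 (adjusted p = 0.261).

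The lateral factors had differences near 0, none past the test, and a wide spread between arrays. Gsx1, which promotes the maturation of lateral progenitors, measured 12.71, 12.40, 12.26 and 11.53 in 3xTg and 12.59, 12.22, 11.86 and 11.66 in WT (A_55_P2085075). The samples of an array differed by at most 0.40, while the array means spanned 1.05. The difference was 0.14 ± 0.11 (SE; 95% interval -0.12 to 0.40; limma adjusted p = 0.556). Gsx2, which sets the identity of the lateral band and of the early stem cells there, measured 8.86, 8.01, 8.75 and 8.38 in 3xTg and 8.74, 8.16, 8.82 and 8.40 in WT at its brighter probe (A_55_P2052071). Its difference was -0.03 ± 0.10 (SE; 95% interval -0.26 to 0.19; adjusted p = 0.89). The other Gsx2 probe (A_51_P520468) differed by -0.0009 ± 0.12 (SE; 95% interval -0.29 to 0.29; adjusted p = 0.998), with 2 arrays above 0 and 2 below.

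Lhx6, a LIM-homeodomain factor of interneurons born in the ventral band, had differences near 0 at each of its probes. Its brightest probe (A_55_P2005903) measured 14.74, 14.64, 14.62 and 14.40 in 3xTg and 14.67, 14.80, 14.77 and 14.59 in WT. The 3xTg sample was the lower on 3 arrays and the higher on array 1, and the difference was -0.11 ± 0.10 (SE; 95% interval -0.33 to 0.12; limma adjusted p = 0.611). This interval lies below the whole interval for Nkx2-1, which ran from 0.47 to 1.23; the difference between these genes was not tested. The other probes of Lhx6 differed by -0.0047 (A_55_P2094158) and -0.09 (A_55_P2094149), with 95% intervals within -0.34 and 0.32 (adjusted p = 0.994 and 0.702).

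**Figure D2:**
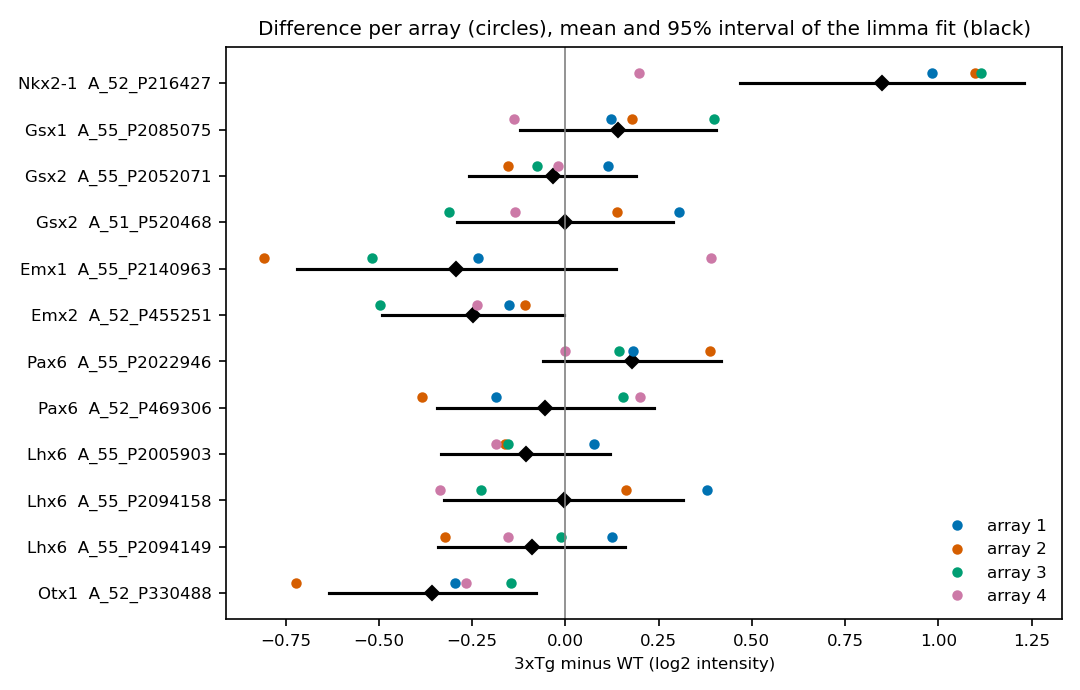
Difference 3xTg minus WT (log2 intensity, x axis) for each of the 12 probes (y axis); coloured circles are the 4 arrays, and black diamonds and bars are the mean and the 95% interval of the limma fit, which is not adjusted for the number of probes. The Nkx2-1 interval runs from 0.47 to 1.23, those of Emx2 and Otx1 lie below 0, and the other 9 include 0.

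The spread between arrays was larger than the genotype difference for all of these probes except that of Nkx2-1. The mean of both samples of an array spanned 0.22 to 1.05 over the 4 arrays, widest for Gsx1 and narrowest for the brightest Lhx6 probe. For 11 of 12 probes this span exceeded the size of the difference, against 92.2% of all probes. For Nkx2-1 the span was 0.49 and the difference 0.85. Gsx1 was highest on array 1 and lowest on array 4 in both genotypes, and Emx2 was highest on array 2 and lowest on array 3 in both. Without the array in the fit, none of the 12 probes passed, and the adjusted p of Nkx2-1 was 0.301.

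**Figure D3:**
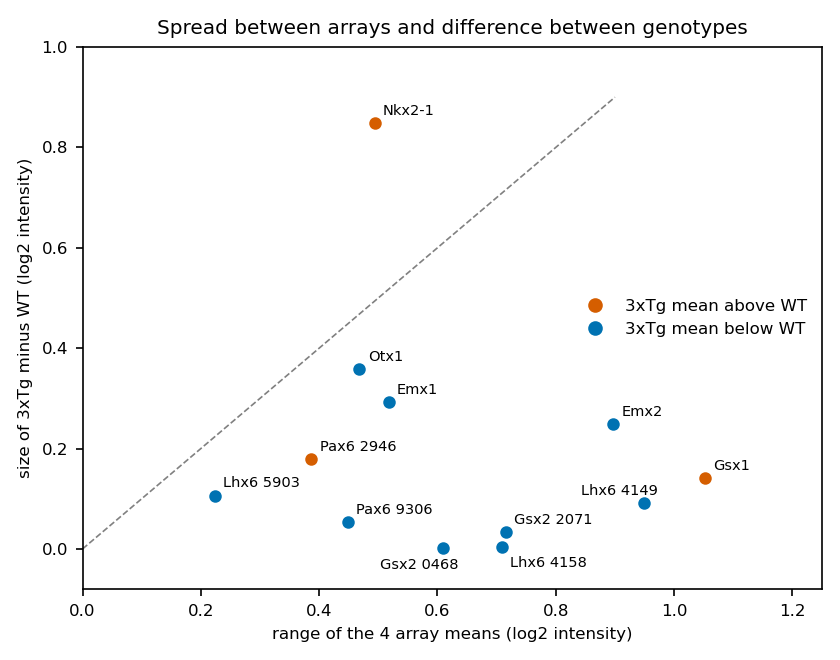
Size of the 3xTg minus WT difference (y axis, log2 intensity) against the range of the 4 array means (x axis, log2 intensity) for each of the 12 probes; colours give the direction, the dashed line marks equality, and 4 digits after a name are the last digits of the probe. Nkx2-1, at 0.49 on x and 0.85 on y, is above the line and the other 11 probes are below it.

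Other factors of the same bands were examined by list, each gene at its brightest probe. These lists and the marker lists below were chosen with earlier results of these data known, so their counts are given as a description. Over all 21363 genes the median difference was 0.01, and 52.6% lay above 0. By this measure 0.562% of genes passed as higher and 0.623% as lower, and 3872 genes had an unadjusted p under 0.05. Of 16 measured ventral genes other than Nkx2-1 and Lhx6, 11 lay above 0, the median was 0.10 and 0 passed (limma; 3 at an unadjusted p under 0.05). The smallest p in this list belonged to Shh, the ventral morphogen, at 0.91 ± 0.26 (SE; limma adjusted p = 0.148). Lhx8, a factor of cholinergic neurons that acts downstream of Nkx2-1 in mouse, differed by 0.78 ± 0.25 (limma adjusted p = 0.178). Its means, 8.73 in 3xTg and 7.95 in WT, were below the sample medians of 10.12 to 10.15, and detection was not assessed. Gli1, a target of Shh signalling, differed by 0.31 ± 0.12 (adjusted p = 0.233), with -0.01 at a second Gli1 probe. Shh differed by 1.84, 1.22, 0.04 and 0.55 on arrays 1 to 4 and Lhx8 by 1.73, 0.93, 0.03 and 0.43, so array 3, where Nkx2-1 differed most, showed little for either.

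Of 20 lateral genes other than Gsx1 and Gsx2, 12 lay above 0 and 8 below, and the median was 0.10. An unadjusted p under 0.05 (limma) was found for 9 of them, and 1 passed, as higher. This gene was Isl1, a LIM-homeodomain factor of striatal and septal neurons, which rose by 0.71 ± 0.12 (SE; limma adjusted p = 0.0429). Sp9 and Sp8, zinc finger factors of neuroblasts from the lateral band, differed by 0.79 ± 0.15 (adjusted p = 0.0588) and -0.45 ± 0.11 (adjusted p = 0.106), and a second Sp8 probe had the opposite sign at 0.49. Of 16 pallial genes other than the 4 factors above, 8 lay above 0, the median was -0.07 and 0 passed (7 at an unadjusted p under 0.05). Neurod2 and Neurod6, factors of cortical excitatory neurons, differed by -2.18 ± 0.64 and -1.35 ± 0.46 (limma adjusted p = 0.154 and 0.2). Nr2f2, in this list but as a nuclear receptor of caudal and ventral forebrain not pallial alone, differed by 0.57 ± 0.13 (adjusted p = 0.0885).

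Of 12 measured septal genes, 10 lay above 0, the median was 0.45, 6 had an unadjusted p under 0.05 (limma) and 3 passed. These were Isl1, as above, and the zinc finger factors Zic1 and Zic4, of which Zic1 rose by 1.49 ± 0.27 (SE; limma, adjusted p = 0.0496) and Zic4 by 0.74 ± 0.13 (SE; adjusted p = 0.0466). Second probes of Zic1 and Zic4 differed by 0.97 and 1.30 and did not pass (adjusted p = 0.203 and 0.0959). The rest of the septal list was uneven. Zic2 and Zic5, of the same family as Zic1 and Zic4, differed by 1.55 and 1.19. Lhx8, counted in the ventral list as well, differed by 0.78. Fgf8, Fgf15 and Fgf17 differed by 0.17, 0.03 and 0.05, and the cholinergic genes Chat, Slc18a3 and Slc5a7 by -0.33, 0.18 and -0.05. Among 17 genes of cortical-type interneurons other than Lhx6, 8 lay above 0 and the median was -0.03. An unadjusted p under 0.05 (limma) was found for 7 of them, and 1 passed in each direction. Npy, a neuropeptide, fell by 1.26 ± 0.21 (adjusted p = 0.0409), while Chodl, which marks long-range somatostatin neurons of the cortex, rose by 1.01 ± 0.17 (adjusted p = 0.042), with 0.35 at a second probe (adjusted p = 0.185). Sst and Pvalb, the peptide and the calcium-binding protein of the main Lhx6 interneuron classes, differed by -0.31 and -0.37 (adjusted p = 0.285 and 0.673). In this list the smallest p after these belonged to Elfn1, at 0.43 ± 0.10 (adjusted p = 0.0916). The Elfn1 means, 7.28 in 3xTg and 6.85 in WT, were also below the sample medians.

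These 5 calls depended on which arrays were fitted, while the differences kept their direction. With 1 replicate left out, the difference ran from 0.62 to 0.80 for Isl1, from 1.26 to 1.83 for Zic1 and from 0.63 to 0.85 for Zic4, and from -1.53 to -1.07 for Npy and 0.85 to 1.21 for Chodl. Without replicate 2, 0 of Isl1, Zic1, Zic4, Npy and Chodl passed, with adjusted p between 0.31 and 0.353. Without replicate 1, Chodl passed, without replicate 3, Isl1 and Zic4 passed, and without replicate 4, Zic1 and Npy passed. After quantile normalisation 0 of the 5 passed, with adjusted p from 0.0559 to 0.0732, and 5 of 5 passed after median centring. Without the array in the fit 0 of the 5 passed. Genes that mark the hypothalamus, another site of Nkx2-1, were examined as a list: of 9 measured genes other than Nkx2-1, 5 lay above 0, the median was 0.04 and 0 passed (0 at an unadjusted p under 0.05). Pomc, Trh and Six6 differed by -0.15, 0.33 and -0.26 (limma adjusted p = 0.481, 0.442 and 0.283). The median level of the hypothalamic list was 9.86 in 3xTg and 9.82 in WT. These levels were below the sample medians of 10.12 to 10.15, and detection was not assessed.

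Markers of neighbouring regions and cell types differed between samples, and their part in the differences of the patterning factors was not tested. Of 14 measured markers of striatal projection neurons, 0 lay above 0, 12 had an unadjusted p under 0.05 and 0 passed (limma, over all probes). Their median level lay between 11.48 and 13.59 in 3xTg and between 13.37 and 13.76 in WT, and the median difference was -2.06, -1.67, 0.31 and -0.42 on arrays 1 to 4. Nkx2-1 differed by 0.98, 1.10, 1.12 and 0.20 on arrays 1 to 4. The septal list had medians of 0.74, 0.58, 0.32 and 0.08 on the same arrays, and array 4 was the lowest for both this list and Nkx2-1; the median level of the list ran from 10.17 to 10.92 in 3xTg and from 10.14 to 10.81 in WT.

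Markers of cortical and hippocampal glutamatergic neurons, with Emx1 left out, had medians of -0.68, -0.66, -0.72 and 0.12 on arrays 1 to 4, with 4 of 12 genes above 0. Emx1 itself had the same signs, at -0.23, -0.81, -0.52 and 0.39. The median level of this list lay between 11.02 and 11.72 in 3xTg and between 11.34 and 12.51 in WT. Neurod2 and Neurod6, themselves in this list, had these signs too, at -1.60, -3.31, -4.18 and 0.39 and at -1.22, -2.46, -2.37 and 0.65. The members of smallest p, Nrgn, Mef2c and Kcnv1, stayed below 0 on array 4, at -0.47, -0.04 and -0.02. The list was thus mixed in sign on that array. Emx2 and Otx1 were lower in 3xTg on array 4 as well.

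Markers of the choroid plexus, an epithelium of the ventricle, had 5 of 11 genes above 0 and a median of -0.03. Ttr, its secreted thyroid hormone carrier, differed by 1.09, 1.27, 1.22 and 0.13 on arrays 1 to 4 (0.93 ± 0.19 SE; limma adjusted p = 0.0713), large on the arrays where Nkx2-1 was. The Ttr mean was 10.04 in 3xTg and 9.11 in WT. The median level of this list lay between 8.78 and 9.15 in 3xTg and between 8.89 and 9.14 in WT. These levels were below the sample medians of 10.12 to 10.15. Of the 11 markers, 4 had an unadjusted p under 0.05 (limma) and 0 passed. The other choroid plexus markers of smallest p, Slc4a5 and Kl, had differences of -0.54 and -0.41 (adjusted p = 0.0711 and 0.181), with 0.21 at a second Slc4a5 probe (adjusted p = 0.382). Sostdc1, a secreted antagonist made there and chosen after its values were seen, differed by 0.74 (adjusted p = 0.22) and by 0.48 at a second probe. Median differences were -0.02 over 12 ependymal markers, 0.15 over 14 of astrocytes and neural stem cells, -0.02 over 13 of neuroblasts and transit-amplifying cells, 0.40 over 11 of oligodendrocytes, -0.04 over 9 of microglia and 0.10 over 10 of endothelial cells, with 0 passed in each of these lists. In the same order 0, 8, 5, 5, 3 and 2 of these markers had an unadjusted p under 0.05, and 5, 10, 6, 11, 2 and 7 lay above 0. The oligodendrocyte list, with 11 of 11 above 0, had medians of -0.12, 0.58, 0.71 and 0.43 on arrays 1 to 4. The ependymal and neuroblast markers that define this tissue had mean intensities from 9.29 to 13.26 and from 8.00 to 14.91.

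**Figure D4:**
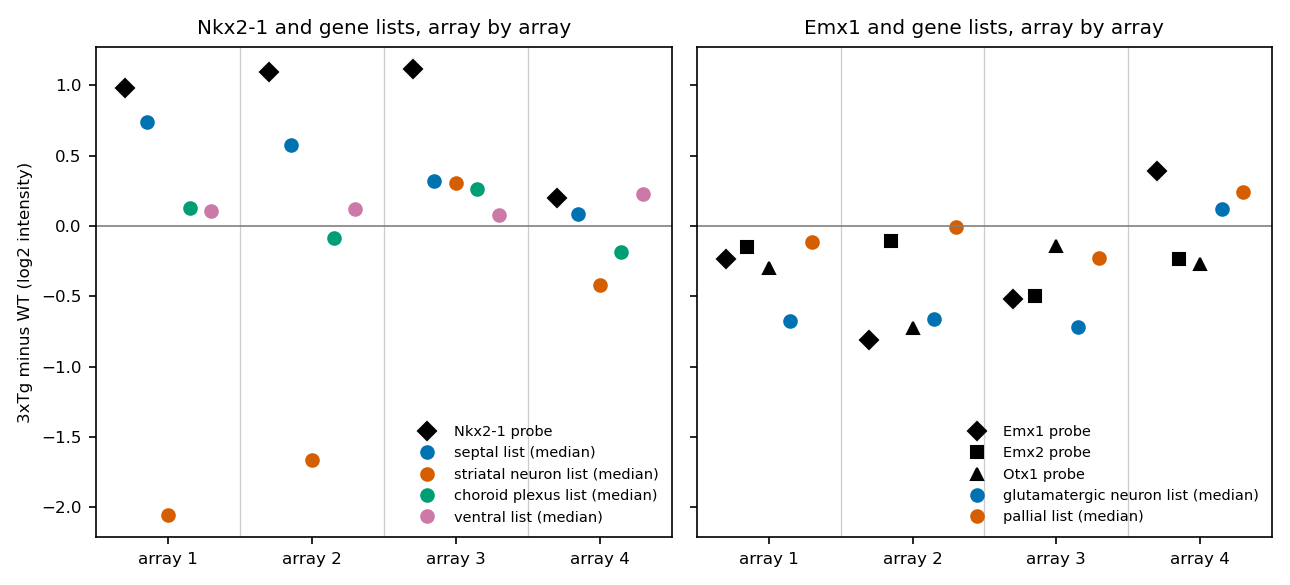
Difference 3xTg minus WT (y axis, log2 intensity) on each of the 4 arrays (x axis) for Nkx2-1 and the medians of 4 lists (left) and for Emx1, Emx2, Otx1 and the medians of 2 lists (right), with the 8 factors left out of the lists. Nkx2-1 is near 1 on arrays 1 to 3 and 0.20 on array 4, the striatal list is far below 0 on arrays 1 and 2, and Emx1 and the glutamatergic list are above 0 on array 4.

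The genes whose levels followed each factor most closely over the 8 samples were picked out by Pearson correlation as a description, since the 8 samples share 4 arrays and all 29769 named probes were searched. For Nkx2-1 these were Zic5 (r = 0.989), a zinc finger factor of the same family as Zic1, and Asb4 (r = 0.987), an adaptor of ubiquitin ligases. The Zic5 probe differed by 1.00, 1.52, 1.20 and 0.19 on arrays 1 to 4 and the Asb4 probe by 1.07, 1.43, 1.503 and 0.14. Each was small on array 4 as Nkx2-1 was, a likeness that their choice by correlation favours. Neither passed (limma, adjusted p = 0.0693 and 0.0739).

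For the other factors the highest correlations were those of Fbxo34 (0.998) and Rpl34-ps1 (0.973) with Emx1, Tbl3 (0.986) and Rnf186 (0.968) with Emx2, and Syna (0.976) and Nmt2 (0.971) with Otx1. Gsx1 was followed by Kis2 (0.994) and Aurkb (0.993), Gsx2 by Ccdc115 (0.991) and Pilrb1 (0.982), Pax6 by Ces3a (0.971) and Vmn2r35 (0.968), and Lhx6 by Bmyc (0.985) and Ppfia3 (0.983). None of these 14 genes passed. The number of named probes with r above 0.9 differed widely, from 20 for Pax6 and 46 for Nkx2-1 to 1303 for Gsx1, the factor with the widest span between arrays.

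Flanking genes were examined for each factor, as the nearest 2 measured genes on each side in the RefSeq order. Of these 32 genes 0 passed (limma, adjusted over all probes), where 1.22% of all probes passed. An unadjusted p under 0.05 was found for 7 of the 32, against 18.0% of all probes. The differences ran from -0.43 to 0.53. The highest was Sfta3-ps, the measured gene next to Nkx2-1 on chromosome 12, at 0.53 ± 0.10 (SE; adjusted p = 0.057). It differed by 0.33, 0.54, 0.65 and 0.59 on arrays 1 to 4, above 0 on each, and unlike Nkx2-1 it was not low on array 4. On the other side of Nkx2-1, Nkx2-9 differed by 0.19 and Pax9 by 0.24, both homeobox or paired-box genes (adjusted p = 0.349 and 0.256), and Mbip, beyond Sfta3-ps, by 0.10 (adjusted p = 0.641).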

How the data were processed

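Total RNA of the subventricular zone from 4 3xTg and 4 WT mice was measured on 4 arrays of 2 channels, each shared by the samples of 1 replicate number per the labels. The values are log2 intensities, 1 for each probe in each sample, which the authors normalized before depositing them. The submitters' processing notes name limma. How background was corrected, how values were normalized and whether probes were filtered is not given in the sources used here. No scanner file was used here, so detection above background was not assessed, and the number of arrays limits precision. Sample medians lay between 10.12 and 10.15.

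Probes were named from the platform annotation, which gave 1 symbol for 29769 of 32684 probes, several for 0 and none for 2915. RefSeq tables of assembly GRCm38.p6 gave gene neighbours and promoter windows, and 8 of 8 genes matched by symbol.

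The linear model, fitted to all probes (limma 3.58.1, R 4.3.3), had array as a fixed block, genotype as the term of interest, default moderation, and Benjamini-Hochberg adjustment over 32684 probes at 0.05, two-sided. The pairing was checked: deviations from group means correlated at r = 0.78, 0.78, 0.54 and 0.82 between the samples of arrays 1 to 4, and at most 0.18 between samples of different arrays. The fit was tested on simulated data.

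A gene in a list is represented by its brightest probe, that of highest mean. The rule for named genes takes all probes of the 8 factors, the 3 other genes of smallest unadjusted p in each of 15 lists, and the 2 genes of highest Pearson r for each factor. Sst, Pvalb, Sostdc1, Chat, Slc18a3, Slc5a7, Fgf8, Fgf15, Fgf17, Zic2 and the brightest Zic5 probe were named outside this rule. Flanking genes were added after the values were seen. The factors and lists were chosen with earlier results of these data known. Alternatives were no array term, a random array block (statmod 1.5.0), median centring, quantile normalisation, loess within arrays (span 0.3), trend and robust moderation, leaving out the dimmest 25% of probes, keeping probes that have 1 symbol, the mean of a gene's probes, and leaving out each array. Leaving out replicates 1 and 2 together was added after seeing the data.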

Additional observations from a re-analysis of the deposited data

Results flagged for a closer look

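Single arrays far from the others were looked for in 36 sets of 4 values, the 3xTg levels, the WT levels and the differences of the 12 probes, and 2 stood out; chance gives about 1 in 20. For Nkx2-1 the difference on the array of replicate 4 was 0.20, with the other three arrays between 0.98 and 1.12, and the gap took 0.855 of the range. For the brightest Lhx6 probe the difference on the array of replicate 1 was 0.0776, with the other three between -0.19 and -0.15, and the gap took 0.877 of the range.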

How the results depend on the processing

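None of the 12 probes passed in the reported fit, without the replicate block (0 probes; 78 over the whole table against 400), or with quantile normalisation, loess, either filter on probes or replicates 1 and 2 left out together. Leaving out 1 replicate gave 0 to 1 probes. With the array as a random replicate block, centring on sample medians, or trend and robust moderation, 1 probe passed, for Nkx2-1, whose difference ran from 0.76 to 1.06 over the alternatives, apart from 0.66 without replicates 1 and 2; the cause of these moves was not tested. Of all probes, 1309 passed with the random block, 905 with trend and robust moderation and 247 with quantile normalisation, and 31 to 414 with 1 replicate left out. Of 151 differences of single probes under an alternative, 8 turned in sign, all of them at probes whose reported difference was -0.05 or nearer 0, and none past the threshold. Gsx2 (A_51_P520468) was at 0.0029 after median centring and between -0.10 and 0.10 with 1 replicate left out, and Gsx2 (A_55_P2052071) between -0.083 and 0.0062 with 1 replicate left out. Pax6 (A_52_P469306) was between -0.14 and 0.056 with 1 replicate left out and at 0.18 without replicates 1 and 2. Lhx6 (A_55_P2094158) was between -0.13 and 0.11 with 1 replicate left out. Of 90 list medians under an alternative, 6 moved by more than their spread between arrays, with the 8 factors kept in. Dropping replicate 3 took the lateral list from 0.10 to -0.01. The ventral list, at 0.10, went to 0.03 on dropping replicate 2 and to 0.16 on dropping replicate 4. The hypothalamic list, at 0.05, went to 0.10 on dropping replicate 4. Dropping replicates 1 and 2 took this list to -0.07 and the astrocyte list from 0.15 to 0.01. It also took the striatal list from -0.94 to -0.04, within that list's spread of 1.10. With 5 of 12 probes among the dimmest 25% and detection not assessed, small changes at these probes would have been missed.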
